A study of Mus musculus with 19 samples.

Results

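Mutant allele shares were compared between quiescent and proliferative cells of the same tumour at 305 pairs of matched sites, 269 in SCC1 and 36 in SCC2. A site is a base substitution, insertion or deletion in messenger RNA that alters a protein, and its mutant allele share is the percent of reads carrying the altered allele. Sites were matched by chromosome, position and alleles between the quiescent and the proliferative library of 1 tumour, and needed a depth of at least 20 reads in both. The pairs cover 272 distinct sites, of 656 distinct sites in the deposited mutation table.

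The material was squamous cell carcinoma of mouse skin, strain C57BL/6, grown as allografts after injection of tumour cells into the skin. Quiescent cells were sorted as CD71lo H2BGFPhi and proliferative cells as CD71hi H2BGFPlo, both from tumour cells with an H2B-GFP label. CD71 is the transferrin receptor, which takes up iron and is abundant on dividing cells, and H2B-GFP is a fluorescent histone that is diluted when cells divide. Each population of each tumour gave 1 library, so there are no replicates within a tumour, and SCC1 and SCC2 are the 2 replicates of a population. The labels name no further allele or treatment for these 4 libraries, and they do not say how many animals each came from.

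In a tumour whose cells descend from 1 mutated founder, an early mutation is present in all tumour cells, while a late one marks a subclone. If quiescent and cycling cells belonged to different subclones, the share of subclone mutations would differ between them. A share measured in RNA also depends on how strongly each allele is transcribed, on the number of gene copies, on normal cells in the sort and on RNA editing. RNA editing by ADAR enzymes turns adenosine into inosine, which is read as G. No normal tissue was compared here, so inherited variants among the sites were not told apart from tumour mutations. Hras encodes a small GTPase of the growth factor pathway, and Trp53 encodes the p53 tumour suppressor; both are commonly mutated in skin squamous carcinoma.

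The 4 libraries differed in depth. The table lists 422 sites in quiescent and 498 in proliferative cells of SCC1, and 95 and 411 in SCC2. The median depth over listed sites was 40 and 35 reads in quiescent and proliferative cells of SCC1, and 19 and 33 reads in SCC2. At matched sites the medians were 56 and 72 reads in SCC1, and 45.5 and 235.5 reads in SCC2. Quiescent cells of SCC2 were therefore the shallowest library, which limits the comparison in that tumour to 36 sites. No listed site had fewer than 10 reads or a share below 11%, so a site below these limits in either population cannot be among the matched ones.

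The sorted populations differed in expression along the axis of the sort. In the authors' deposited table of log2 expression ratios, quiescent over proliferative, Mki67, a marker of cycling cells, had −5.90 in SCC1 and −2.28 in SCC2. Tfrc, which encodes CD71, had −1.72 and −1.55 in the authors' deposited table. This table lists genes deposited as differentially expressed, so markers that did not differ can be missing from it. It holds 16 of 24 markers of fibroblasts and endothelium and 9 of 22 immune markers. For SCC1 the authors' deposited table puts the median of the 16 markers at 0.07 and that of the 9 immune markers at −0.38, with 9 of 16 and 2 of 9 higher in quiescent cells. For SCC2 the authors' deposited table puts these medians at 4.07 and 2.87, with 16 of 16 and 9 of 9 listed markers higher in quiescent cells. Of 32 keratinocyte markers the authors' deposited table holds 4. Their median there was −2.17 in SCC1, with 1 higher and 3 lower in quiescent cells. In SCC2 it was 0.75, with 3 higher and 1 lower. The share of all deposited genes that were higher in quiescent cells was not computed, so these counts have no background beside them. The listed markers of other cell types were thus higher in the quiescent sort of SCC2, but so were 3 of the 4 keratinocyte markers. The part of other cell types in the allele shares was not tested. No site of the fibroblast and endothelial list or of the cell division list was matched in either tumour.

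The driver gene Hras carried Q61L, a change at the glutamine that GTP hydrolysis needs, at chromosome 7 position 141192550 in exon 3, an A-to-T change on the transcript (build mm10). In SCC1 the mutant share was 67% of 360 reads in quiescent cells (exact 95% interval 61.8 to 71.8%) and 62% of 561 reads in proliferative cells (57.9 to 66.1%). In SCC2 it was 62% of 52 reads in quiescent cells (47.0 to 74.7%) and 57% of 405 reads in proliferative cells (52.1 to 61.9%). The intervals overlapped in both tumours, and the quiescent value was 5 points higher in each. The difference had a 95% interval of −1.45 to 11.1 points in SCC1 and −9.88 to 17.4 points in SCC2. The Fisher exact test on reads gave p = 0.140 in SCC1 and 0.555 in SCC2, with Benjamini-Hochberg adjusted p = 0.644 and 1 over the 305 sites. Input DNA of SCC1 was called at 4 copies there by the authors, and SCC2 had no copy number call.

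Trp53 had 2 changes in its DNA-binding domain, on chromosome 11. R277S lay at position 69589630 in exon 8 and N128Y at position 69588379 in exon 5, numbered on transcript NM_001127233. R277S was at 68% of 214 reads in quiescent cells of SCC1 and 63% of 294 reads in proliferative cells. The SCC2 shares were 69% of 35 reads in quiescent cells and 62% of 189 reads in proliferative cells. Quiescent cells thus had the higher value in both tumours, by 5 and 7 points, with 95% intervals of −3.11 to 13.4 and −11.2 to 21.4 points. The Fisher exact test gave p = 0.222 and 0.568, and neither passed after Benjamini-Hochberg adjustment (adjusted p = 0.804 and 1).

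N128Y was at 29% of 91 reads in quiescent cells and 32% of 186 reads in proliferative cells of SCC1. The difference of −3 points had a 95% interval of −14.5 to 8.13 points and a Fisher exact p = 0.582 (adjusted p = 1). The only SCC2 library that lists it is the proliferative one, at 41% of 113 reads. The shares of the 2 Trp53 changes summed to 97% in quiescent and 95% in proliferative cells of SCC1, and to 103% in proliferative cells of SCC2. The sites lie in different exons and the file gives no reads that span both, so whether they sit on 1 allele or 2 was not tested. Of the lists of Ras and MAPK genes, p53 and checkpoint genes and squamous carcinoma drivers, which have 23, 13 and 32 genes, the other gene with a matched site was Ep300, a histone acetyltransferase. Its change was at 16% of 51 reads and 14% of 42 reads in quiescent and proliferative cells of SCC1.

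**Figure D1:**
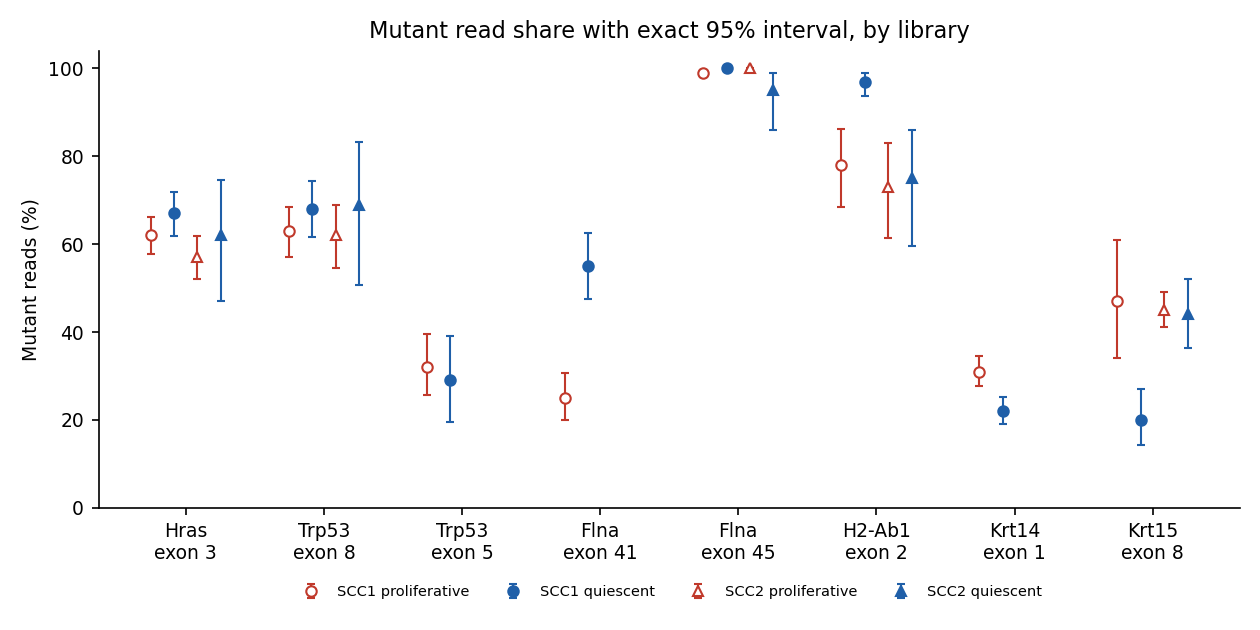
Percent of reads with the mutant base (vertical axis) at 8 sites, by library, with exact 95% binomial intervals for counting error. Circles are SCC1, triangles SCC2, filled blue quiescent and open red proliferative; the Hras and Trp53 intervals overlap, while the SCC1 intervals of Flna exon 41, H2-Ab1, Krt14 and Krt15 do not.

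Across all matched sites the shares of the 2 populations lay along the line of equality. In SCC1 the median share was 44% in quiescent and 46% in proliferative cells, and the median difference, quiescent minus proliferative, was 0 points. The share was higher in quiescent cells at 126 sites, lower at 121 and equal at 22. The populations were within 5 points of each other at 133 sites (49.4%) and within 10 points at 208 (77.3%). Over these 269 sites, which share 2 libraries, Pearson's r between the populations was 0.91 and Spearman's rho 0.88.

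In SCC2 the median share was 53% in quiescent and 54.5% in proliferative cells, with a median difference of −1 point. The share was higher in quiescent cells at 16 sites, lower at 19 and equal at 1. The populations were within 5 points at 22 of the 36 sites (61.1%) and within 10 points at 29 (80.6%). Over these sites r was 0.96 and rho 0.94. The typical 95% interval of a single difference was 29.9 points wide in SCC1 and 27.6 points in SCC2 (medians). At a typical site, then, a difference of 10 points was not detectable at this depth.

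**Figure D2:**
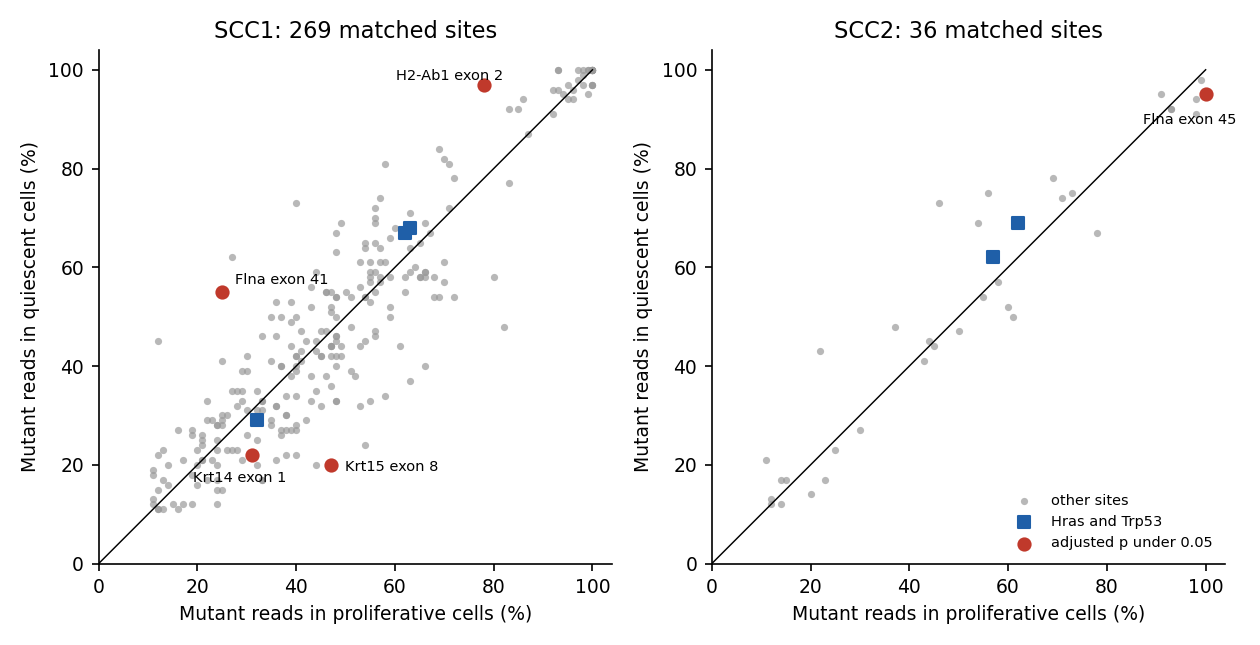
Percent of mutant reads in quiescent cells (vertical axis) against proliferative cells (horizontal axis), 1 point per matched site, for SCC1 (left, 269 sites) and SCC2 (right, 36 sites); the line marks equal shares. Most points lie near the line, and the red points are the 4 sites of SCC1 and 1 site of SCC2 with an adjusted Fisher exact p under 0.05.

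The Fisher exact test with Benjamini-Hochberg adjustment called 4 of 269 sites in SCC1 (1.49%), 2 higher (0.743%) and 2 lower (0.743%) in quiescent cells. In SCC2 it called 1 of 36 (2.78%), lower in quiescent cells. Without adjustment, 32 sites of SCC1 (11.9%) had p under 0.05, 14 higher (5.2%) and 18 lower (6.69%). In SCC2, 6 sites (16.7%) did, 3 higher (8.33%) and 3 lower (8.33%). These tests compare the reads of 2 libraries at a site, not the populations, and reads that are PCR copies of 1 molecule make the p-values too small.

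The largest of the called differences was in Flna, which encodes filamin A, a large protein that crosslinks actin. The site was Q2333R on transcript NM_010227, an A-to-G change on the transcript in exon 41, at position 74226862 of the X chromosome. The share was 55% of 176 reads in quiescent cells of SCC1 (47.4 to 62.6%) and 25% of 268 reads in proliferative cells (19.9 to 30.6%). Quiescent cells were 30 points higher, with a 95% interval of 20.9 to 38.7 points (Fisher exact p = 1.69e-10, Benjamini-Hochberg adjusted p = 5.16e-08). The site was not listed in SCC2. As background, filamin A is known for a glutamine-to-arginine change made by A-to-I RNA editing, and RNA reads alone do not separate an edited RNA from a changed DNA base. No DNA reads were analysed here at these sites, so which of them this site is was not tested.

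Other known recoding editing sites were looked up after these values had been seen. Azin1, an inhibitor of the antizyme that regulates polyamine synthesis, had S367G at 12% of 33 reads in proliferative cells of SCC2. Blcap had Q5R at 33% of 12 reads in quiescent cells of SCC1. Each was listed in 1 library only, so none could be compared between populations. Over all 23 A-to-G sites of SCC1, which include Flna Q2333R, the share was higher in quiescent cells at 13, lower at 7 and equal at 3. Their median difference was 1 point, beside 0 for all SCC1 sites. In SCC2 the 5 A-to-G sites were 2 higher and 3 lower, with a median difference of −2 points, beside −1 for all SCC2 sites.

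A second Flna site had its base change in nearly all reads. H2517P in exon 45, at position 74224934, was at 100% of 660 reads in quiescent and 99% of 835 reads in proliferative cells of SCC1. The SCC2 shares were 95% of 60 reads in quiescent cells and 100% of 756 reads in proliferative cells. The quiescent library of SCC2 was the one below 99%, with a difference of −5 points (95% interval −13.7 to −1.68; Fisher exact p = 0.000379, Benjamini-Hochberg adjusted p = 0.0231). This call ended, with a Fisher exact adjusted p = 0.164, when the rounded percents were read as the counts that bring the shares closest. The listed markers of fibroblasts, endothelium and immune cells were higher in the same library, and their part in this value was not tested.

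H2-Ab1 was the other site higher in quiescent cells. It encodes the beta chain of an MHC class II molecule, which presents antigen and is typical of immune cells. The change was P83S in exon 2, at chromosome 17 position 34264913. The share was 97% of 206 reads in quiescent cells of SCC1 and 78% of 92 reads in proliferative cells. The SCC2 shares were 75% of 47 reads and 73% of 71 reads. Quiescent cells of SCC1 stood apart, while the other three libraries were between 73 and 78%. The SCC1 difference was 19 points (95% interval 10.9 to 28.4; Fisher exact p = 5.31e-07, Benjamini-Hochberg adjusted p = 8.10e-05). In the authors' deposited table the log2 expression ratio of H2-Ab1 was 1.65 in SCC1 and 2.49 in SCC2, so its RNA was listed higher in quiescent cells of both tumours. The 9 immune markers held by the authors' deposited table, of which H2-Ab1 was the highest in SCC1, had a median of −0.38 in that tumour.

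H2-Eb1, which encodes another class II beta chain, had F94Y at 62% of 26 reads in quiescent and 27% of 26 reads in proliferative cells of SCC1. This difference of 35 points was the largest of any matched site, and with 26 reads on each side its 95% interval was 7.63 to 55.4 points. It did not pass the Benjamini-Hochberg adjustment (Fisher exact p = 0.0245, adjusted p = 0.292). In the authors' deposited table the log2 expression ratio of H2-Eb1 was −0.13 in SCC1 and 3.27 in SCC2.

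Keratin sites made up the 2 called decreases in SCC1. Krt14 encodes keratin 14, a filament protein of basal keratinocytes, and Krt15 encodes keratin 15, known as a marker of hair follicle stem cells. Krt14 M14L lay in exon 1 at chromosome 11 position 100207416. Its share was 22% of 737 reads in quiescent cells (19.0 to 25.1%) and 31% of 722 reads in proliferative cells (27.7 to 34.5%). The difference was −9 points (95% interval −13.5 to −4.52; Fisher exact p = 0.000111, Benjamini-Hochberg adjusted p = 0.00959). In SCC2 it was at 43% of 14 reads in quiescent cells, below the depth minimum, and 41% of 277 reads in proliferative cells.

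Krt15 S433C lay in exon 8 at chromosome 11 position 100132091. Its share was 20% of 164 reads in quiescent cells of SCC1 (14.3 to 27.1%) and 47% of 57 reads in proliferative cells (33.98 to 61.03%). The difference was −27 points (95% interval −41.1 to −13.1; Fisher exact p = 0.000126, Benjamini-Hochberg adjusted p = 0.00959). In SCC2 the shares were 44% of 163 reads and 45% of 610 reads, which differed by less than counting error (p = 0.860, Fisher exact). The SCC1 quiescent library was thus the low one of the 4. Both genes lay in regions called at 4 copies in SCC1 by the authors. Keratins of this family share sequence, so reads of similar genes could be exchanged, and this was not tested.

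Krt19 R210S, a keratin site outside the gene list that was named after its values were seen, had a difference of the opposite sign. Krt19, which encodes a keratin of simple epithelia, lies on chromosome 11 at position 100142091, also at 4 copies, and its share was 42% of 24 reads in quiescent and 30% of 23 reads in proliferative cells of SCC1. The difference of 12 points did not pass (Fisher exact p = 0.547, Benjamini-Hochberg adjusted p = 1). The list had 7 matched sites in SCC1, with 1 higher, 5 lower and 1 equal and a median difference of −5 points, beside 0 points for all SCC1 sites. Krt5, the partner of keratin 14, was at 44% of 111 reads and 47% of 124 reads in quiescent and proliferative cells. Dst, which encodes a linker of keratin to hemidesmosomes, was at 44% of 184 and 49% of 271 reads. Pkp3, a desmosomal plakophilin, was at 58% of 124 and 66% of 149 reads. Krt18, a keratin of simple epithelia, was at 47% of 327 and 46% of 223 reads, and the desmosomal protein gene Dsp was at 100% in both. None of these 5 sites passed the test. In SCC2 the 3 keratinocyte sites, in Krt15, Krt18 and Dst, had differences of −1, −3 and −2 points, and none passed.

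MHC class I genes, whose products present antigen on nearly all cells, had high shares. In SCC1 the 16 matched sites had a median share of 94.5% in quiescent and 93.5% in proliferative cells and a median difference of 0 points, with 7 higher, 6 lower and 3 equal. H2-Q4 G118S, for example, was at 98% of 81 reads and 97% of 157 reads, and H2-Q4 F165S at 96% of 159 and 92% of 242 reads. H2-T23 I317V was the lowest but for H2-K1, at 20% of 182 reads in quiescent and 32% of 171 reads in proliferative cells, and did not pass after adjustment (Fisher exact p = 0.0104, Benjamini-Hochberg adjusted p = 0.181). In SCC2 the 6 sites had a median difference of −1.5 points, 1 higher and 5 lower; none passed by the adjusted Fisher exact test, and 1 of 6 had an unadjusted p under 0.05, beside 16.7% of all SCC2 sites. H2 genes are related and share sequence to differing degrees, so the authors' read assignment could split their reads, and these shares are uncertain.

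The deepest sites had narrower intervals of the difference than a typical site. H3f3b encodes histone H3.3, and its K19I change was at 20% of 1451 reads in quiescent and 24% of 1212 reads in proliferative cells of SCC1. The interval of this difference of −4 points was −7.20 to −0.87, with Fisher exact p = 0.0126, and it did not pass after Benjamini-Hochberg adjustment (adjusted p = 0.183). In SCC2 the same site was at 41% of 282 reads and 43% of 1014 reads. Rpl4, a protein of the large ribosomal subunit, was at 54% of 1135 and 54% of 1163 reads in SCC1, where the difference of 0 points had an interval of −4.06 to 4.08 points. In SCC2 Rpl4 was at 98% of 150 and 99% of 834 reads. Rpl14, another protein of that subunit, had a frameshift insertion at 13% of 274 and 12% of 971 reads in SCC2.

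Among other deep sites, S100a10, the light chain partner of annexin A2, was at 58% of 964 and 57% of 1122 reads in SCC1. In SCC2 it was at 50% of 282 reads in quiescent and 61% of 1055 reads in proliferative cells, a difference of −11 points (95% interval −17.5 to −4.53) just outside the threshold (Fisher exact p = 0.00106, Benjamini-Hochberg adjusted p = 0.0539). Gclm, a subunit of the enzyme that makes the glutathione precursor, was at 42% of 1504 and 45% of 1196 reads in SCC1. In SCC2 it was at 43% of 54 reads in quiescent and 22% of 469 reads in proliferative cells, 21 points apart (95% interval 7.74 to 34.3; Fisher exact p = 0.00208, Benjamini-Hochberg adjusted p = 0.0810). Pmepa1, a target and inhibitor of TGF-β signalling, was at 59% of 456 and 55% of 397 reads in SCC1, and its SCC2 shares were 48% of 44 and 37% of 194 reads. Tpi1, a glycolytic enzyme, was at 18% of 345 and 19% of 306 reads in SCC1, with SCC2 shares of 14% of 50 and 20% of 295 reads. Neither Pmepa1 nor Tpi1 passed the test in a tumour.

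Differences were also split by depth. In SCC1 the differences ran from −34 to 35 points over the 123 sites whose smaller depth was 20 to 49 reads, from −27 to 19 points over the 66 sites at 50 to 99 reads, and from −16 to 30 points over the 80 deeper sites. The median size of the difference was 6, 5.5 and 5 points in these classes of SCC1, and 3, 5 and 1 points over 22, 9 and 5 sites of SCC2. A gap of 20 points or more was seen at 16 sites of SCC1 (5.95%), 6 higher (2.23%) and 10 lower (3.72%), and at 2 sites of SCC2 (5.56%), both higher. The 2 sites of SCC2 were in Gclm and Erdr1. Of the 16 sites, 14 did not pass the adjusted test. One of them, seen after the values were known, was Myc D87E, in the gene of the growth-promoting transcription factor, at 34% of 38 reads in quiescent and 58% of 40 reads in proliferative cells (Fisher exact p = 0.0447, Benjamini-Hochberg adjusted p = 0.368).

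**Figure D3:**
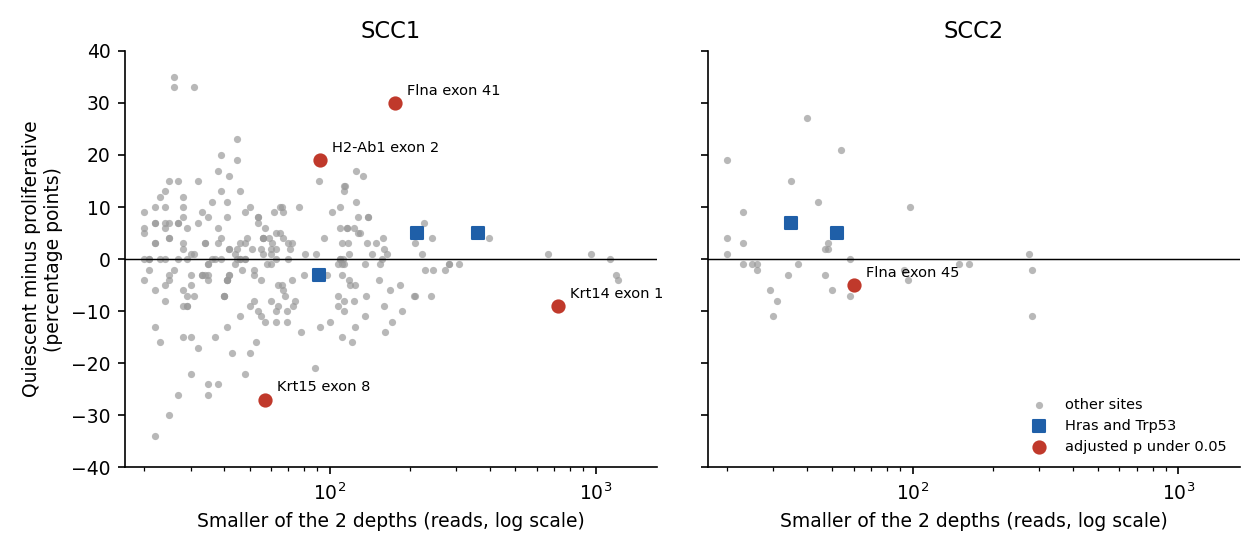
Difference in mutant share, quiescent minus proliferative, in percentage points (vertical axis) against the smaller of the 2 read depths at the site (horizontal axis, log scale), for SCC1 (left) and SCC2 (right). The largest gaps of the uncalled sites lie at the left, near 20 to 50 reads; the red points have an adjusted Fisher exact p under 0.05, and of these Flna exon 41 is 30 points above 0 at 176 reads.

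At the depth minimum itself, Prr7 was at 26% of 31 and 30% of 20 reads and Myo10 at 55% of 20 and 50% of 24 reads in quiescent and proliferative cells of SCC1, and in SCC2 Acot13 was at 45% of 20 and 44% of 95 reads and H2-Q4 G118S at 95% of 20 and 91% of 88 reads. Just below it, Mrps14 was at 37 and 47% and Zbtb24 at 46 and 32% in SCC1, and Hnrnpa3 at 21 and 14% and Ccar1 at 94 and 71% in SCC2. The minimum left out 87 matched sites of SCC1 and 34 of SCC2.

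Sites were also split by the kind of change. In SCC1, 248 sites changed an amino acid, 12 made a stop codon and 9 were insertions or deletions. The 12 stop codons, which can lower the RNA of their allele through nonsense-mediated decay, were higher in quiescent cells at 6 sites and lower at 6, over a range of −22 to 10 points, and none had an unadjusted Fisher exact p under 0.05, beside 11.9% of all SCC1 sites. A-to-T changes, the class of the Hras and Trp53 changes, were the most frequent, with 110 sites of SCC1, 49 higher and 56 lower and a median difference of −1 point. In SCC2 the 14 A-to-T sites were 7 higher and 7 lower.

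Shares were also set against the copy number of the site and its level. The 130 sites of SCC1 with no copy number call, the 94 at 3 copies and the 40 at 4 copies each had a median difference of 0 points, and the 5 sites at 5 copies had a median of −4 points. By chromosome, for those with at least 10 matched sites in SCC1, the median difference ran from −7 points on chromosome 5, with 2 of 14 sites higher and 12 lower, to 6.5 points on chromosome 1, with 12 of 20 higher and 7 lower. These medians were picked from many and carry no test. Among sites with a mean share above 90%, the median difference was 0 points over 29 sites of SCC1, 12 higher and 8 lower. In SCC2, 6 of 7 such sites were lower in quiescent cells and 1 higher, with a median of −1 point. These 7 sites lie in 4 genes, and the part of other cells, whose listed markers were higher in that library, was not tested.

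Neighbouring sites gave a check on the values. In SCC1, 12 pairs of consecutive sites within 20 bases of each other, in 9 genes, had differences that lay 0 to 22 points apart, with a median of 1 point. The exception was Pisd, a phosphatidylserine decarboxylase gene, where sites 15 bases apart had differences of 33 and 11 points. Reads that cover both sites of a pair are the same molecules, so such pairs are not independent.

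Read depth and expression were compared where both were known. At 32 sites of SCC1 in genes of the authors' deposited table, Pearson's r between the log2 ratio of depth and the log2 expression ratio was 0.88, and 28 sites had the same sign. Both ratios count reads of the same libraries, so agreement was built in, and it is no independent check. The genes of the table are those listed as differentially expressed. Hras, Trp53, Flna, Krt14 and Krt15 were not in that table.

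The tumours shared most of their sites. Of the 269 matched sites of SCC1, 236 were also listed in SCC2, and of the 36 of SCC2, 35 were listed in SCC1. The tumours are therefore not independent sets of mutations, and at 33 sites all 4 libraries had a depth of at least 20 reads. At these sites the populations of 1 tumour differed by a median of 3 points in SCC1 and 4 points in SCC2. The tumours differed by a median of 9 points in proliferative cells and 11 points in quiescent cells. A gap of 20 points or more separated the populations at 1 site in SCC1 and 2 in SCC2, and the tumours at 8 sites in proliferative and 12 in quiescent cells. Median depth at these sites was 198 and 225 reads in quiescent and proliferative cells of SCC1 and 40 and 217 reads in SCC2.

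Single genes show the tumour gap. Rpl4 was at 54% in both populations of SCC1 and at 98 and 99% in those of SCC2, and H3f3b at 20 and 24% against 41 and 43%. Ptges3, a cochaperone of Hsp90, was at 99 and 98% in SCC1, against 74 and 71% in SCC2. In these genes both populations of a tumour lay on the same side of the other tumour.

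The 33 sites were then tested over both tumours, with an exact test on reads stratified by tumour, which was added after the data had been seen. Reads are its units, so variation between libraries of a population is not in its p-values. The test called 2 sites (6.06%) after Benjamini-Hochberg adjustment and 7 (21.2%) without it. One was H2-Ab1, with a Mantel-Haenszel odds ratio of 2.83 (exact adjusted p = 0.00335), where the difference was 19 points in SCC1 and 2 points in SCC2. The odds ratios of the tumours differed at this site (Zelen's exact test of equal odds ratios, adjusted p = 0.00980). The common odds ratio therefore does not describe both tumours there.

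The other was R102H in Erdr1, a gene of the pseudoautosomal region, at position 90785975 of chromosome Y. Its share was 94% of 140 reads in quiescent and 86% of 194 reads in proliferative cells of SCC1. In SCC2 the shares were 73% of 40 reads and 46% of 341 reads. Quiescent cells had the higher share in both tumours, by 8 and 27 points, with an odds ratio of 2.89 (exact stratified adjusted p = 0.00234). Within each tumour alone the site did not pass the Benjamini-Hochberg adjustment (Fisher exact adjusted p = 0.251 and 0.0810). The other Erdr1 sites had smaller differences. E123V and E123D had differences of 4 and 2 points in SCC1 and of 2 and 3 points in SCC2, and R148H had −6 points in SCC1. At Hras and Trp53 R277S, both higher in quiescent cells of both tumours, the odds ratios were 1.23 and 1.28, and neither passed (exact stratified p = 0.112 and 0.152, adjusted p = 0.359 for both).

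The population differences had the same sign in both tumours at 19 of the 33 sites, 11 higher and 8 lower in quiescent cells, and opposite signs at 12. Pearson's r between the differences of the tumours was 0.06 over these 33 sites. A Wald test on the log odds ratios found that the difference between populations itself differed between the tumours at 5 sites (15.2%) after Benjamini-Hochberg adjustment, and at 6 (18.2%) without it. An exact test of equal odds ratios (Zelen), which needs no normal approximation, also called 5 (15.2%) and 6 (18.2%). By the exact test the adjusted p was 0.00980 at Krt15, H2-Ab1 and Gclm, 0.000485 at Flna exon 45 and 0.0181 at S100a10. At Hras and at Trp53 R277S the exact test gave adjusted p = 1, with differences of 5 and 5 points at Hras and of 5 and 7 points at Trp53.

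**Figure D4:**
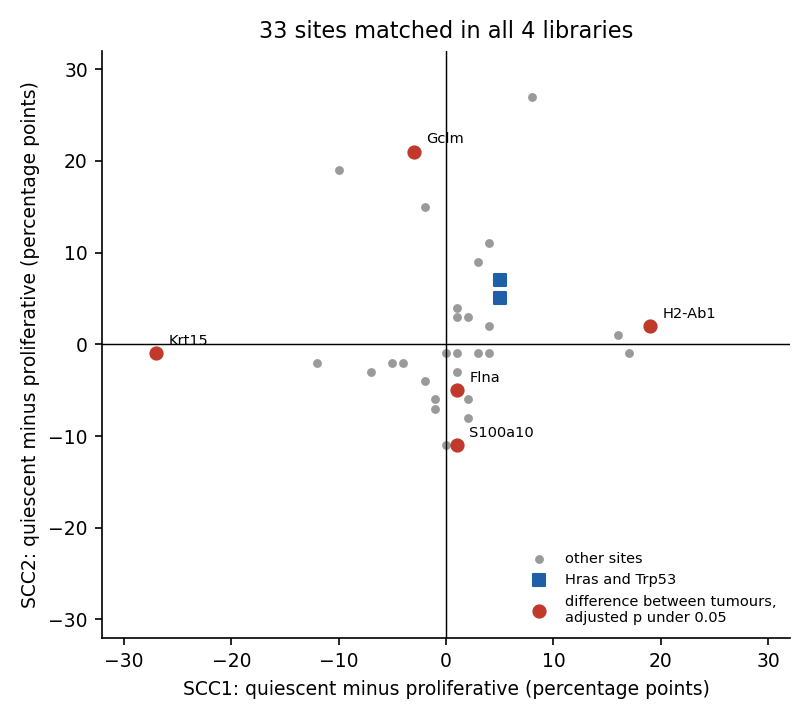
Difference in mutant share, quiescent minus proliferative, in percentage points, in SCC2 (vertical axis) against SCC1 (horizontal axis) at the 33 sites matched in all 4 libraries. Points scatter around 0 (Pearson's r 0.06); red points differ between the tumours (adjusted Wald p under 0.05), and Hras and Trp53 lie 5 to 7 points above 0 in both.

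Some sites were listed in 1 population only. In SCC1, 66 sites were listed in quiescent cells alone, at a median depth of 21.5 reads and a median share of 18.5%, and 142 in proliferative cells alone, at a median depth of 16 reads and a share of 40%. In SCC2 the counts were 25 and 341, the latter at a median depth of 27 reads and a share of 47%, and 271 of those 341 were also listed in SCC1. Many had a depth of at least 20 reads in the library that lists them. In quiescent and proliferative cells these were 35 of 66 and 57 of 142 in SCC1, and 10 of 25 and 219 of 341 in SCC2. Such sites are outside the matched comparison. A site missing from a library is not shown to be absent from it, because the table gives no depth where a site is not listed.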

How the data were processed

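RNA was sequenced from CD71lo H2BGFPhi and CD71hi H2BGFPlo cells of SCC1 and SCC2. The submitters' processing notes name build mm10, Cuffdiff 2.2.0, Cufflinks 2.2.0 and TopHat2 2.0.9; the mutation caller was not given in the sources used. Per the file headers, the deposited mutation table gives a depth as a read count and the share of alternative reads as a whole percent, and it holds 1426 rows. The copy number table gives whole copies as a score deposited by the authors, from input DNA. The expression table holds log2 ratios deposited by the authors for genes listed as differentially expressed.

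Alternative reads were taken as percent times depth, rounded to whole reads. Sites needed 20 reads in both libraries. Reads at each site were compared by Fisher's exact test, two-sided, with Benjamini-Hochberg adjustment over 305 sites of both tumours at a threshold of 0.05. Differences between tumours used a Wald z of log odds ratios with 0.5 added to each count and, as an alternative added later, Zelen's exact test. Both tumours together were tested with an exact conditional test stratified by tumour, since the libraries of a tumour are paired by its number in the labels. Intervals are exact (Clopper-Pearson) 95% intervals for shares and Newcombe 95% intervals for differences, and cover counting error only. Sites inside coordinates of their gene numbered 260 of 264, in a reference annotation of the same assembly. Tests ran in scipy 1.17.1 and statsmodels 0.14.6 under Python 3.11.15 (pandas 2.3.3, numpy 2.4.6), with plots in matplotlib 3.10.9. The tests were tested on simulated data with independent reads. These data hold no PCR copies and no variation between libraries, so they do not give the error rate of the real libraries.

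Named sites were all matched sites of Hras, Trp53 and the driver lists, the 10 deepest in all 4 libraries, those past the threshold (up to 10 per tumour), the 5 deepest per tumour and those nearest the depth minimum. Other named sites were chosen after their values were seen. The sites and gene lists were chosen with earlier results of these data known. Alternatives changed the depth minimum, the sites kept, the rounding and the adjustment.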

Additional observations from a re-analysis of the deposited data

Results flagged for a closer look

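At 5 of the 33 sites matched in all 4 libraries, the difference between quiescent and proliferative cells itself differed between SCC1 and SCC2, by a Wald test on log odds ratios with Benjamini-Hochberg adjustment and by Zelen's exact test. At Krt15 (adjusted p = 0.00778, exact 0.00980) the difference was −27 points in SCC1 and −1 point in SCC2. At H2-Ab1 (adjusted p = 0.00778, exact 0.00980) it was 19 points in SCC1 and 2 points in SCC2. At Gclm (adjusted p = 0.00778, exact 0.00980) it was −3 points in SCC1 and 21 points in SCC2, where the quiescent library had 54 reads. At Flna exon 45 (adjusted p = 0.00778, exact 0.000485) it was 1 point in SCC1 and −5 points in SCC2, with all 4 shares at 95% or more. At S100a10 (adjusted p = 0.0166, exact 0.0181) it was 1 point in SCC1 and −11 points in SCC2. The test compares reads of single libraries, so variation between libraries of 1 population is not in these p-values.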

How the results depend on the processing

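With 4 sites called in SCC1, the count was 1 without the sites inside copy number calls, 2 without sites matched in both tumours and 16 for a gap of 20 points or more with no test. With 1 site called in SCC2, it was 3 at a depth of 50 or more, 0 without sites at 95% or more in both libraries, 0 without sites matched in both tumours (3 sites left), 0 with the rounding that brings shares closest, and 2 for a gap of 20 points or more. With the adjustment made within each tumour alone, the count was 4 in SCC1 and 4 in SCC2 (2 higher, 2 lower). The median difference was −2.22 points as a pooled share in SCC1, in place of 0, and the mean was 1.78 points in SCC2, in place of a median of −1. The 5 sites that differed between tumours became 3 with the closest rounding, an alternative added after the data were seen, where S100a10 had an adjusted Wald p = 0.0626 and Flna exon 45 had 0.0554, and were 5 by Zelen's exact test. Leaving out A-to-G changes, also added later, gave 3 called sites in SCC1 and 1 in SCC2. The Krt14, Krt15, H2-Ab1 and Flna exon 41 calls held in each alternative with a Fisher exact test that kept the site, with adjusted p up to 0.0346. The rule of 20 points or more with no test leaves out Krt14 and H2-Ab1, at −9 and 19 points in SCC1. The causes of these changes were not tested beyond the sites and reads left out. With the tumour as replicate block, the exact stratified test called 2 of the 33 sites, and summing the reads of both tumours without the block called 10; both were added after the data were seen. Depth limits SCC2 most, where the quiescent library had a median of 45.5 reads at matched sites.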
